A study of Mus musculus with 8 samples.

Results

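The Hedgehog receptors Ptch1 and Smo, the decoy receptor Hhip, the co-receptors Boc, Cdon and Gas1, and the transcription factors Gli1, Gli2 and Gli3 were followed across all libraries of the study. These 9 genes were chosen by name, and each was found once among the 55487 gene identifiers of the deposited count table. The study compared E14-Tg2a mouse embryonic stem cells with line 4D, a derivative of genotype Tbx1-/-, a homozygous loss of the T-box transcription factor gene Tbx1. Both were harvested on day 6 of a serum-free differentiation towards precardiac mesoderm, with 4 biological replicates each and no other allele or agent named. RNA was measured by QuantSeq, which reads the 3′ end of polyadenylated transcripts, and expression is stated in CPM, a gene's counts relative to the size of its library after adjustment between libraries. Since the mutant group is 1 line, its genotype and other properties of that line cannot be told apart.

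Hedgehog ligands bind Ptch1, which otherwise holds the membrane protein Smo inactive at the primary cilium. Active Smo stops the conversion of Gli3 and Gli2 to repressors and lets Gli proteins activate targets, among them Gli1, Ptch1 and Hhip, so that the levels of these targets are commonly read as a gauge of signalling. Boc, Cdon and Gas1 bind ligand beside Ptch1, and their genes are known to be repressed by the pathway in several embryonic tissues. In the embryo, Hedgehog signals from the pharyngeal endoderm reach the second heart field and take part in septation of the outflow tract and the atria.

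Total counts ranged from 3803561 to 6293907 per library. Mutant library 4 stood apart, with 14850 genes detected by 1 count or more, where the other 7 libraries had 18213 to 19134. Tbx1 had 39, 65, 38 and 22 counts in parental libraries 1 to 4 and 3, 0, 1 and 0 in mutant libraries 1 to 4. The estimate for Tbx1 was -5.08 ± 0.88 (log2 fold change and SE; edgeR adjusted p = 0.00432), a fitted value that depends on the prior count because all mutant counts were at or under 3. The libraries matched their labels at this gene. Over the whole table, an adjusted p under 0.05 was reached by 99 genes that were higher in line 4D and by 89 that were lower. Scaling by library size alone gave 100 higher and 57 lower.

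Gas1 was the 1 member called between the lines, higher in the mutant line by 1.67-fold. Ptch1 was lower in all 4 mutant libraries than in any parental library but did not pass the test over all genes. Gli3, Cdon and Gli2 had positive fold changes and Gli1 and Smo negative ones, none past the threshold, and Boc lay close to 0. Of the 9 members, 8 had enough counts to be tested, and Hhip did not. The 1 call among 8 tested members stands beside 1.42% of all 13280 tested genes called in either direction, 0.745% called higher and 0.67% called lower. The median log2 fold change of the 8 members was 0.22, against 0.001 over all tested genes. The plot of members by library shows every value.

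**Figure D1:**
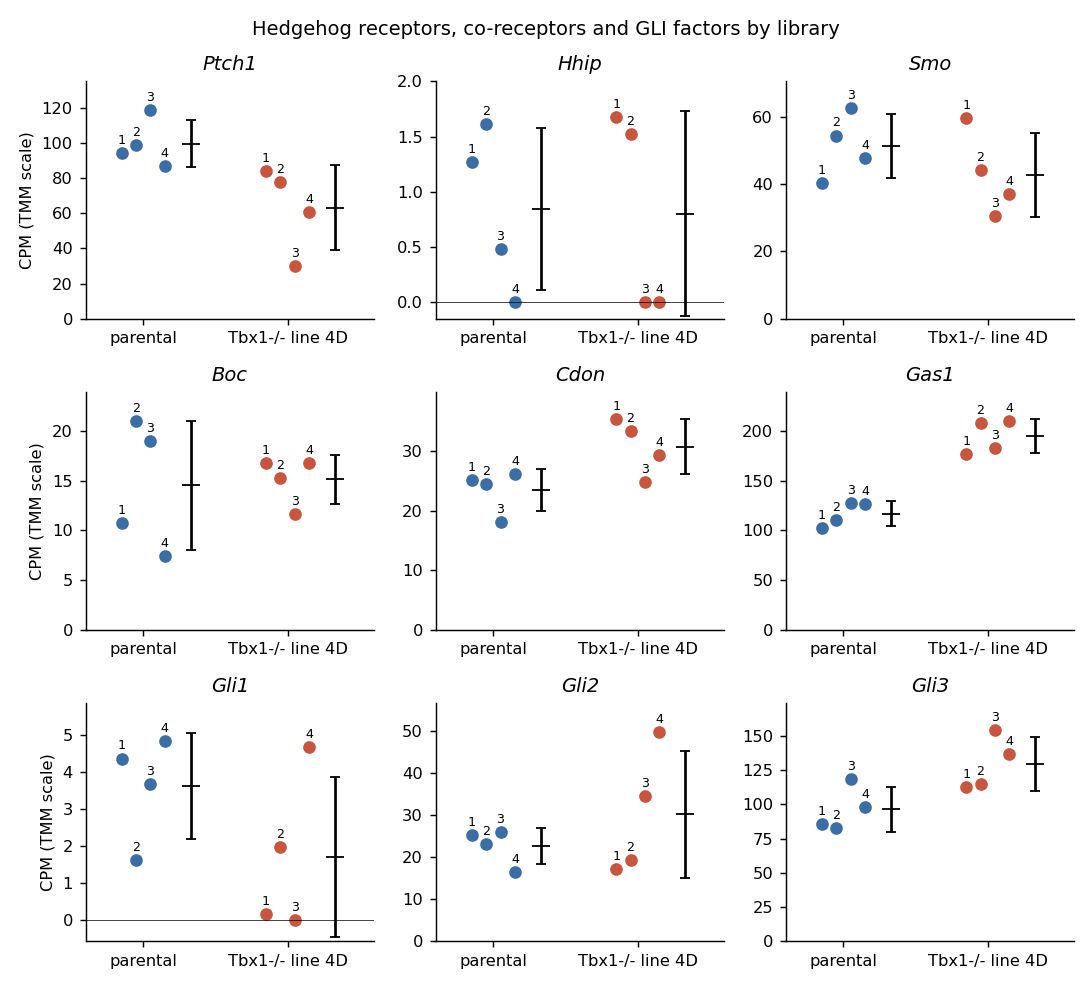
Level of each member in CPM (linear axis, own scale per panel) in the 4 parental and 4 Tbx1-/- line 4D libraries; points are libraries with their replicate number, and black bars give mean ± SD. Gas1 lies between 102 and 128 CPM in parental and between 177 and 210.3 CPM in mutant libraries, Ptch1 between 87.0 and 119 against 30.2 and 84.3, and the other panels overlap.

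Among the co-receptors, Gas1 encodes a membrane-anchored protein that binds Hedgehog ligand and was first known as a growth-arrest gene. It is a protein-coding gene of chromosome 13 (60174405 to 60177365, minus strand, GRCm38; ENSMUSG00000052957.8). Its level was 102, 110.0, 128 and 127 CPM in parental libraries 1 to 4 and 177, 208, 183 and 210.3 CPM in mutant libraries 1 to 4. Every mutant library was above every parental library, with the lowest mutant value well clear of the highest parental one. The parental mean was 117 ± 12.6 CPM and the mutant mean 195 ± 17.1 CPM (SD, n = 4). On the log2 scale Gas1 was higher by 0.74 ± 0.12 (SE) in the edgeR quasi-likelihood test, which gave an adjusted p of 0.00272 over all tested genes. Libraries did not overlap in the upper direction for 3.49% of all tested genes. Leaving out mutant library 4 gave 0.70, and each of the 17 other fits kept Gas1 past the threshold, with adjusted p of at most 0.0247.

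Cdon and Boc are related cell-surface proteins of the immunoglobulin superfamily that bind Hedgehog ligand. Cdon (chromosome 9, 35421128 to 35507652, plus strand) had 25.1, 24.6, 18.2 and 26.1 CPM in parental libraries 1 to 4 and 35.4, 33.3, 24.9 and 29.4 CPM in mutant libraries 1 to 4. In 3 of the mutant libraries Cdon was above all parental values, while mutant library 3 fell inside the parental range. Its log2 fold change of 0.39 ± 0.21 (SE) had an edgeR adjusted p of 0.512. Boc (chromosome 16, 44485049 to 44558897, minus strand) varied more among parental libraries, at 10.7, 21.0, 19.0 and 7.37 CPM, than among mutant libraries, at 16.8, 15.3, 11.6 and 16.8 CPM. All mutant Boc values lay inside the parental range, and the log2 fold change was 0.05 ± 0.33 with an edgeR adjusted p of 0.977. The sign of that estimate turned negative in 4 of the 8 fits without a single library.

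Ptch1, the Hedgehog receptor and itself a target of the pathway, lies on chromosome 13 (63508328 to 63573598, minus strand; ENSMUSG00000021466.12). Parental libraries 1 to 4 had 94.6, 98.9, 119 and 87.0 CPM, and mutant libraries 1 to 4 had 84.3, 77.8, 30.2 and 60.8 CPM. The groups did not overlap, but mutant library 1 was close to parental library 4, and mutant library 3 was far below the other mutant libraries. Libraries did not overlap in the lower direction for 4.04% of all tested genes, and in either direction for 7.52%. The means were 99.8 ± 13.5 and 63.3 ± 24.2 CPM (SD, n = 4), with a log2 fold change of -0.66 ± 0.23 (SE), an unadjusted p of 0.00901 and an edgeR adjusted p of 0.200. Without mutant library 3 the estimate was -0.43, and without mutant library 4 it was -0.64. In the fit with no filter on low counts Ptch1 had an adjusted p of 0.00305. That fit called 439 genes in place of 188 and took the adjusted p of Bmp4 from 0.00165 to 2.6e-26. The cause of these shifts was not tested, so its value for Ptch1 is to be read with caution.

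Smo, the transducer that Ptch1 restrains, lies on chromosome 6 (29735503 to 29761365, plus strand). It had 40.4, 54.5, 62.7 and 47.8 CPM in parental libraries 1 to 4 and 59.6, 44.2, 30.5 and 37.1 CPM in mutant libraries 1 to 4. Mutant libraries 3 and 4 were below all parental values, and mutant library 1 was among the highest of all 8. The log2 fold change of -0.26 ± 0.21 (SE) had an edgeR adjusted p of 0.697. Hhip, a membrane-bound decoy that takes up Hedgehog ligand and is induced by the pathway, lies on chromosome 8 (79965851 to 80058006, minus strand). It had 7, 9, 3 and 0 counts in parental libraries 1 to 4 and 10, 7, 0 and 0 counts in mutant libraries 1 to 4. It was too low to test, and a count of 0 allows up to 0.632 CPM in parental library 4, 0.545 CPM in mutant library 3 and 0.825 CPM in mutant library 4 (3 counts, counting error only).

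Among the transcription factors, Gli1 is an activator whose transcription depends on Hedgehog input (chromosome 10, 127329882 to 127341974, minus strand). It had only 24, 9, 23 and 23 counts in parental libraries 1 to 4 and 1, 9, 0 and 17 in mutant libraries 1 to 4, which is 1.61 to 4.85 CPM against 0 to 4.67 CPM. Mutant libraries 1 and 3 were at or under 1 count, but mutant library 4, the library with the lowest total, was as high as the parental ones. The estimate was -1.15 ± 0.97 (log2 fold change and SE; edgeR adjusted p = 0.715), and without mutant library 4 it was -2.39 with an adjusted p of 0.365.

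Gli3, the main source of the Gli repressor, was the most highly expressed of the Gli genes in 8 of 8 libraries by CPM, a measure that in this 3′ assay does not grow with transcript length. It lies on chromosome 13 (15463235 to 15730026, plus strand) and had 86.0, 82.9, 119 and 98.0 CPM in parental and 113, 115, 155 and 137 CPM in mutant libraries 1 to 4. Parental library 3 was above mutant libraries 1 and 2, so the groups overlapped. The log2 fold change of 0.43 ± 0.15 (SE) had an unadjusted p of 0.00889 and an edgeR adjusted p of 0.199. Gli2, the main activator at the start of signalling (chromosome 1, 118834132 to 119053619, minus strand), had 25.3, 23.1, 25.9 and 16.4 CPM in parental and 17.1, 19.4, 34.5 and 49.8 CPM in mutant libraries 1 to 4. Mutant libraries 3 and 4 were above all parental values and mutant libraries 1 and 2 were inside their range. Its log2 fold change was 0.40 ± 0.30 with an edgeR adjusted p of 0.660, and it fell to 0.06 without mutant library 4.

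Of the 8 tested members, 3 (Gas1, Gli3 and Ptch1) had an unadjusted p under 0.05, where 11.9% of all tested genes did. By role, the estimates were positive for 3 of 3 co-receptors, with the sign of Boc depending on which libraries entered. They were positive for Gli2 and Gli3 but not Gli1, and negative for both Ptch1 and Smo. Only Gas1 was called among these, and 6660 of all 13280 tested genes had a positive estimate.

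**Figure D2:**
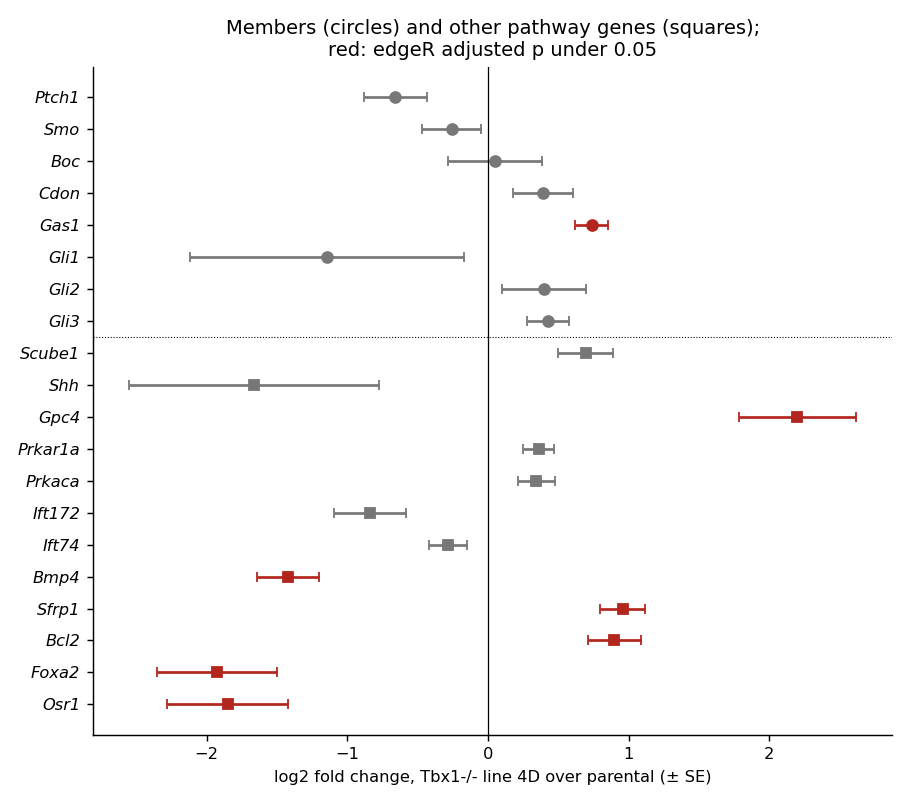
Log2 fold change of Tbx1-/- line 4D over parental libraries with its SE for the 8 tested members (circles, above the dotted line) and the other pathway genes named in the text (squares); red marks an edgeR adjusted p under 0.05. Of the members Gas1 is red at 0.74, while Ptch1 at -0.66 and Gli3 at 0.43 are not.

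Gas1 and Ptch1 separated the lines in opposite directions, and their ratio within a library does not depend on how libraries are scaled. This ratio was looked at after the values were seen and is given without a test. Gas1 had 1.08, 1.11, 1.08 and 1.46 counts for each Ptch1 count in parental libraries 1 to 4, and 2.10, 2.68, 6.05 and 3.46 in mutant libraries 1 to 4. Because Gas1 was higher and Ptch1 lower in every mutant library, the ratio had to be higher in every mutant library than in any parental one. The ratio thus adds no evidence beyond the values above. Mutant library 3, where Ptch1 was lowest, had the highest ratio.

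**Figure D3:**
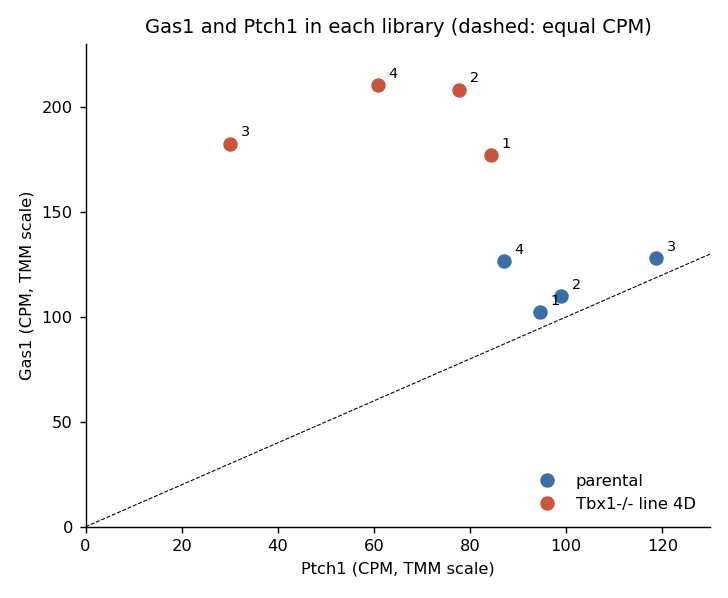
Gas1 against Ptch1 in CPM, 1 point per library with its replicate number; the dashed line marks equal levels. Parental libraries lie near the line and mutant libraries above it and further left, with mutant library 3 at 30.2 CPM of Ptch1 and 183 CPM of Gas1.

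The sequences just upstream of these start sites are shown because Gas1 and Ptch1 are the members whose libraries did not overlap between the lines. RefSeq start sites (GRCm38.p6) were found for 7 of the 9 members, and the 250 bases before each were searched on both strands. Capitals mark a CCAAT box (CCAAT) or a GC box (GGGCGG), read on either strand.
Gas1, chr13:60177536-60177785, minus strand: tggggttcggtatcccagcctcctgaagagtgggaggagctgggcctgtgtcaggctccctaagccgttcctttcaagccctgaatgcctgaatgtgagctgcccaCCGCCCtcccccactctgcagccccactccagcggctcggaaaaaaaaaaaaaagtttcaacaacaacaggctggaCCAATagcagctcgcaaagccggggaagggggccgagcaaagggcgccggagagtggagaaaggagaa
Ptch1, chr13:63565736-63565985, minus strand: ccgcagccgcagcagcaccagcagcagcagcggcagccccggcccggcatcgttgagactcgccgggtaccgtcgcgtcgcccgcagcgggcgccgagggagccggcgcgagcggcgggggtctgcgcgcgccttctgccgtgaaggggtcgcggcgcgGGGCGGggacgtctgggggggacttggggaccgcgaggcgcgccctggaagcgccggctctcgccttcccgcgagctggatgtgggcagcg
The Gas1 window held 1 CCAAT box and 1 GC box, and the Ptch1 window held 1 GC box. Of all 32851 windows of this length, 33.9% held a CCAAT box and 32.7% a GC box. The GLI consensus GACCACCCA was in 0 of the 7 member windows and in 0.225% of all windows. The T-box site AGGTGTGA was in 0 of 7 and in 1.12% of all windows. With sites this rare, 0 of 7 does not set the members apart from other genes. The Ptch1 window was 78.4% G or C with 41 CpG pairs and that of Gas1 58.8% with 10, against medians of 52.4% and 6 over all windows. The windows of Ptch1, Gli3 and Cdon lie inside the annotated spans of their genes. The noncoding gene Gm48488 overlaps Gas1 on the other strand and had at most 4 counts in a library.

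The genes with the pattern closest to a member were found by the root mean square difference of log2 CPM over the 8 libraries, after each gene was centred on its own mean. Among 9025 genes with a mean of at least 10 CPM, the closest to Gas1 were Tmem132c (0.10), Gm17092 (0.14) and Zzef1 (0.15). None of these 3 passed the threshold, with edgeR adjusted p between 0.0783 and 0.168. For Ptch1 the closest were Hoxb7 (0.15), Sparcl1 (0.18) and Sik1 (0.18), with log2 fold changes of -0.53, -0.54 and -0.84 and adjusted p between 0.299 and 0.365. All 3 had their lowest level in mutant library 3, as Ptch1 did, which follows largely from picking them by likeness to Ptch1. Of the other members, Smo was the closest to Ptch1, at place 47 of the ranking with a difference of 0.34. Gli3 was the closest to Gas1, at place 101 with 0.24. For Gli1 the closest were Hoxaas3, Zfp35 and Dpf3, at differences of 0.80 to 0.86, so none followed its low counts closely.

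**Figure D4:**
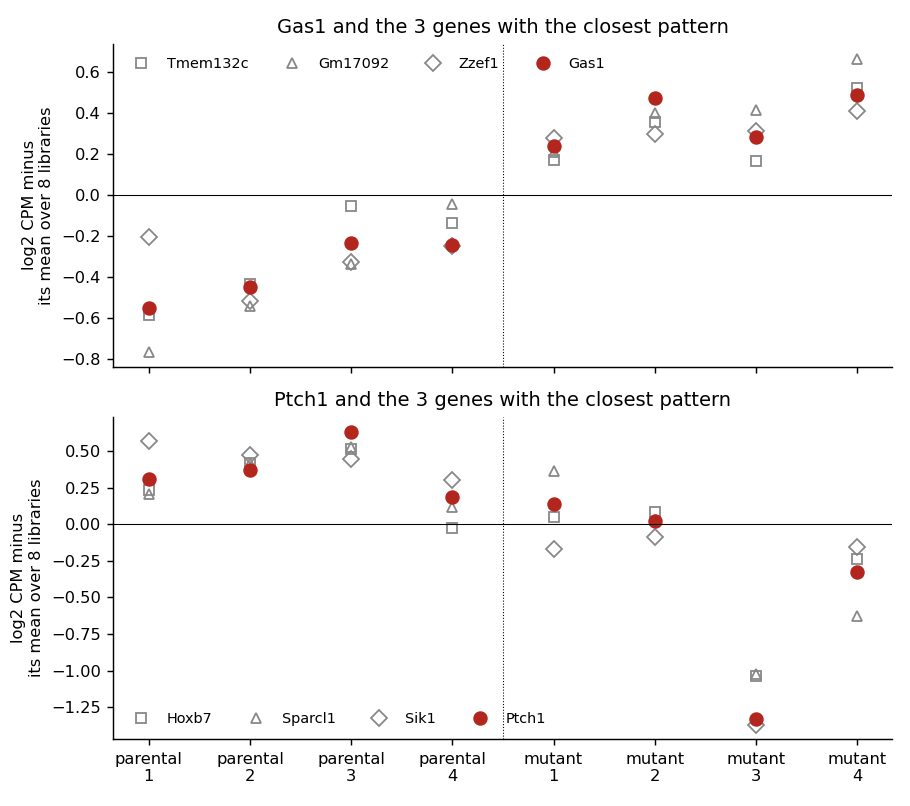
Log2 CPM minus its mean over the 8 libraries for Gas1 (top) and Ptch1 (bottom), in red, with the 3 genes closest in pattern as open grey symbols; the dotted line separates parental from mutant libraries. Gas1 and its neighbours are below 0 in parental and above 0 in mutant libraries, and Ptch1 and its neighbours drop furthest in mutant library 3. The neighbours were picked for this likeness.

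Around the members, 100 further genes of the pathway were examined in 5 lists, which were chosen with earlier results of these data known. Of these, 88 were tested, and 3 were called higher and 3 lower, where 1.42% of all tested genes were called in either direction. Among ligands and genes for their release, 6 of 9 were tested and edgeR called 0, with 1 at an unadjusted p under 0.05, 1 called by DESeq2 and 0 by limma-voom. Shh, the main ligand of pharyngeal endoderm and floor plate, had 13, 20, 30 and 13 counts in parental libraries 1 to 4 and 7, 12, 2 and 0 in mutant libraries 1 to 4. Mutant library 2 exceeded the lowest parental value in CPM, and the log2 fold change of -1.66 ± 0.89 (SE) had an edgeR adjusted p of 0.496. Ihh had at most 10 counts and Dhh at most 7 counts in any library. Scube1, of a family of secreted proteins linked to ligand release, ranged from 28.2 to 49.6 CPM in parental and from 51.6 to 75.7 CPM in mutant libraries. The groups did not overlap, and the estimate of 0.69 ± 0.19 (log2, SE) had an edgeR adjusted p of 0.0904, against 0.030 with DESeq2.

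Among other surface regulators, 8 of 9 were tested and 1 was called. The glypican Gpc4, a cell-surface heparan sulfate proteoglycan, rose from 6.00, 1.44, 4.79 and 2.74 CPM in parental libraries 1 to 4 to 21.7, 17.0, 12.9 and 17.9 CPM in mutant libraries 1 to 4. Gpc4 was higher by 2.20 ± 0.42 (log2, SE; edgeR adjusted p = 0.00835), and 17 of 17 other fits kept the call.

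Of 25 cytoplasmic regulators edgeR called 0, with 2 at an unadjusted p under 0.05, 1 called by DESeq2 (Prkar1a) and 0 by limma-voom. Of 33 genes for the cilium and its transport edgeR, DESeq2 and limma-voom called 0, and 2 had an unadjusted p under 0.05. The first list had 3 genes of 25 without overlap between the lines and the second 2 of 33, beside 7.52% of all tested genes. Prkar1a, a regulatory subunit of protein kinase A, the kinase that primes Gli proteins for processing, had a log2 fold change of 0.36 ± 0.11 (SE) with an edgeR adjusted p of 0.123. The catalytic subunit Prkaca had 0.34 ± 0.13 with an adjusted p of 0.273. Ift172, a subunit of the intraflagellar transport complex, had -0.84 ± 0.26 with an adjusted p of 0.130, and Ift74 -0.28 ± 0.13 with 0.416. The list medians were 0.03 and -0.07.

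The list of other genes known to respond to Hedgehog in some tissue was the one with most calls, 2 higher and 3 lower of 16 tested, and its calls went both ways. Over all tested genes, 0.745% were called higher and 0.67% lower. An unadjusted p under 0.05 was reached by 9 of the 16, and by 11.9% of all tested genes. The list was chosen with earlier results of these data known, so these shares cannot show that it differs from other genes. The called members have many inputs besides Hedgehog. Bmp4, a signalling ligand of mesoderm and second heart field, fell from 329, 413, 354 and 272 CPM in parental libraries 1 to 4 to 165, 170.0, 63.0 and 112 CPM in mutant libraries 1 to 4. The difference was -1.42 ± 0.22 (log2, SE; edgeR adjusted p = 0.00165), and 16 of 17 other fits kept the call, the exception being robust empirical Bayes (adjusted p = 0.0673). Mutant library 3 had the lowest value, as for Ptch1. Osr1, a zinc finger factor of splanchnic mesoderm, had 21.6 to 37.0 CPM in parental and 2.36 to 20.7 CPM in mutant libraries, again lowest in mutant library 3, and its log2 fold change of -1.85 ± 0.43 had an adjusted p of 0.0372. Foxa2, a forkhead factor of endoderm and floor plate, fell from 12.3 to 18.2 CPM to 1.37 to 6.72 CPM. It was lowest in mutant library 4, with a log2 fold change of -1.93 ± 0.42 (SE) and an edgeR adjusted p of 0.0254. Calls of Osr1 and Foxa2 did not survive 6 of the 8 fits without a single library, where their adjusted p reached 0.126 and 0.111. The call of Osr1 was also lost with robust empirical Bayes (adjusted p 0.0705) and library size alone (0.0506), and that of Foxa2 with limma-voom (0.05002).

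Sfrp1 and Bcl2 were the 2 genes of this list that were called higher. Sfrp1, a secreted inhibitor of Wnt signalling, had 57.8 to 94.0 CPM in parental and 115 to 154 CPM in mutant libraries, higher by 0.96 ± 0.16 (log2, SE; edgeR adjusted p = 0.00356). Bcl2, which protects cells from apoptosis, had 24.4 to 39.2 and 51.4 to 68.0 CPM, higher by 0.90 ± 0.19 with an adjusted p of 0.0167, and the call was lost without parental library 2, parental library 3 or mutant library 1 (adjusted p 0.0709 to 0.0878). Foxf1 and Foxf2, forkhead genes of Hedgehog-responsive splanchnic mesoderm, were picked out after their values were seen. Foxf1 had 26.5, 37.0, 39.9 and 43.4 CPM in parental and 35.9, 27.0, 16.7 and 23.6 CPM in mutant libraries 1 to 4, with overlapping groups and an edgeR adjusted p of 0.419. Foxf2 had at most 21 counts in a library and was not tested.

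**Figure D5:**
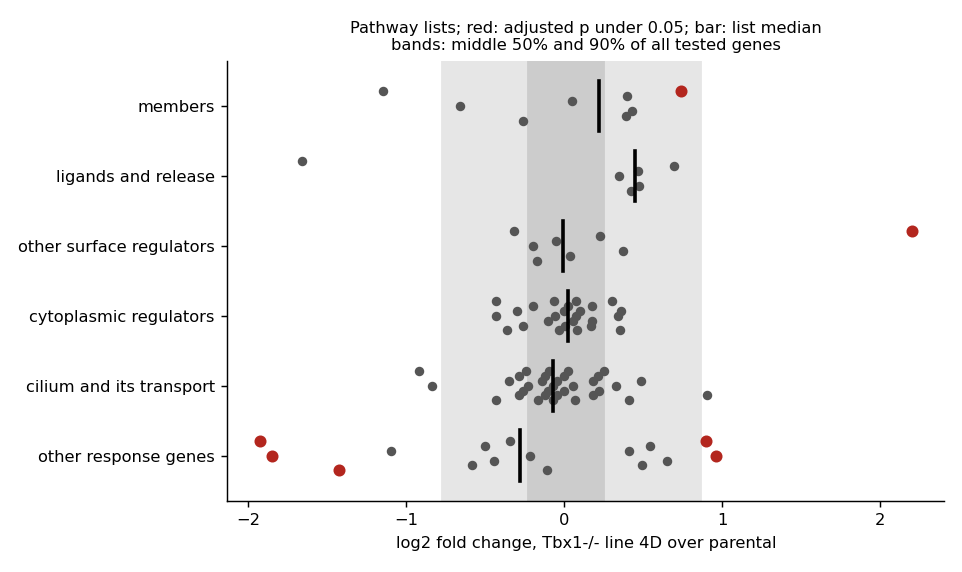
Log2 fold change of each tested gene in the members and in the 5 other pathway lists; red points have an edgeR adjusted p under 0.05, black bars are list medians, and grey bands hold the middle 50% and 90% of all tested genes. Red points are Gas1 among the members, Gpc4 among surface regulators and 5 genes of the response list, 3 to the left and 2 to the right.

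Markers of the cell types that such cultures can hold were read beside these results, since in bulk RNA fewer cells of a type and less RNA per cell cannot be told apart. Precardiac markers (15 of 15 tested) summed to 1623 to 2082 CPM in parental and 1630 to 1899 CPM in mutant libraries. The edgeR test called Gata6 higher and Tbx1 and Fgf10 lower, while DESeq2 called 5 and limma-voom 6. Their median log2 fold change was -0.63, with 4 of 15 positive. An unadjusted p under 0.05 was reached by 9 of them, Tbx1 among these, beside 11.9% of all tested genes. Over all tested genes, edgeR called 0.745% higher and 0.67% lower. The marker lists were chosen with earlier results of these data known, so these shares cannot show that a list differs from other genes. Nkx2-5 and Tbx5 had 0 counts in mutant library 4. Floor plate and notochord markers, a list that shares Shh and Foxa2 with those above, summed to 34.6 to 49.3 CPM in parental and 16.5 to 30.5 CPM in mutant libraries, with 1 of 5 tested genes called (Foxa2, lower). Endoderm markers summed to 331 to 589.7 CPM and 269 to 348 CPM, with Foxa2 and Krt18 called lower of 9 tested. Cardiomyocyte markers ranged widely, from 628 to 3624 CPM in parental and from 122 to 962 CPM in mutant libraries. Their median log2 fold change was -1.25, with 0 of 11 positive. Of these 11, 7 had an unadjusted p under 0.05, and edgeR, DESeq2 and limma-voom called 0. Erythroid markers summed to 130.2 to 185 CPM and 685 to 985 CPM, with 4 globin genes called higher of 9 tested. Of 10 endothelial markers edgeR and limma-voom called 0 and DESeq2 1, with 1 at an unadjusted p under 0.05. Of 7 tested neural markers 0 were called by the 3 tools and 0 had an unadjusted p under 0.05. Of 9 pluripotency markers 6 were tested, and edgeR called 1 (Klf2, higher). Estimates were positive for 3 of these 6, with a median log2 fold change of -0.26, and Tdgf1 had -1.12 (edgeR adjusted p = 0.302). Pou5f1, Zfp42 and Fgf4 were too low to test. No marker of these lists was at 0 in all libraries. The part of these shifts in the values of Gas1, Ptch1 or the other members was not tested.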

How the data were processed

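The authors deposited 1 table of raw counts, with genes in rows and libraries in columns, neither normalized nor pooled. Reads were handled with STAR and featureCounts on mm10, per the submitters' processing notes. Versions, annotation and filters are not given in the sources used here, and forward-strand counting is stated by the table's name. Of 55487 identifiers, 55227 were given a symbol, with coordinates from GENCODE M21 (GRCm38). Features inside Ptch1 (A930032L01Rik), Smo (Gm13717) and Cdon (Gm25630) on the same strand had at most 22, 20 and 24 counts in a library, and reads there may have been left out of the host gene.

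The lines were compared with edgeR 4.0.16 in R 4.3.3 (filterByExpr, TMM scaling, quasi-likelihood F test, line as the only term), with two-sided p-values adjusted by Benjamini-Hochberg over 13280 genes at a threshold of 0.05. SEs were computed as the absolute log2 fold change over the square root of F. Log2 CPM used a prior count of 2. Alternatives were other scalings and filters, robust empirical Bayes, DESeq2 1.42.0, limma-voom (limma 3.58.1), a replicate block, an exact permutation test for members and leaving out each library. No 2 libraries of a line agreed within sampling noise (chi-square per degree of freedom 7.04 to 24.2).

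The members and lists were chosen with earlier results of these data known, and 1 gene of the lists and of the naming rule is not reported here. Genes named were the members, Tbx1, Shh, Ihh and Dhh, called genes of each pathway list (up to 5) or else the 2 with the smallest p, and the 3 genes closest in pattern to Gas1, Ptch1 and Gli1. Others are stated as picked after their values were seen or belong to the marker lists.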

Additional observations from a re-analysis of the deposited data

Results flagged for a closer look

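Of 48 sets of 4 libraries checked for a single library far from the rest, 2 were picked out, both for Dhh. That is no more than the 1 in 20 that chance gives for normally spread values. A set with 1 library above 0 and the rest at 0 is always picked out, so these 2 show only low counts. Dhh was at 1.12 CPM in parental library 3 and at 1.53 CPM in mutant library 2, each from 7 counts, and at 0 in the other libraries of both lines.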

How the results depend on the processing

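Gas1 kept its direction and its call in every fit run, with a log2 fold change of 0.67 to 0.78 when single libraries were left out, and Tbx1 did too in each fit that gave it an adjusted p (-6.28 to -4.74). Ptch1 stayed negative (-0.84 to -0.43) and uncalled over the same fits. It passed with no low-count filter (-0.67), where 2 members were called in place of 1. By the unadjusted exact permutation test Ptch1 had a difference of -0.75 and p = 0.0286, the smallest that 70 assignments allow. Any gene without overlap between the lines reaches that p, so it restates the lack of overlap, which 7.52% of all tested genes showed. Boc ranged from -0.17 to 0.27 over fits that left out 1 library. The count of called genes (188) was 439 with no low-count filter (208 higher, 231 lower), 399 with DESeq2 (203 and 196) and 103 to 235 when single libraries were left out (57 to 115 higher, 39 to 120 lower). Lower calls were 57 with library size alone and 140 with limma-voom. Calls of ligand and release genes rose to 1 with no low-count filter and with DESeq2, those of cytoplasmic regulators to 1 with DESeq2, and those of other response genes fell to 3 with robust empirical Bayes and to between 2 and 5 without single libraries; the causes were not tested. Same-numbered libraries deviated from their group means with correlations of -0.03 to 0.10, so the numbers were not taken as pairs. With the replicate block 234 genes and 1 member were called. Counts of Gli1, Hhip, Shh, Ihh and Dhh were low, so their values carry a large counting error.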
